A study of Homo sapiens with 6 samples.

Results

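Tripartite motif (TRIM) proteins are mostly ubiquitin ligases. Their shared front end is a RING finger, which recruits a ubiquitin-conjugating enzyme, followed by B-box zinc fingers and a coiled coil through which the proteins pair up. What comes after the coiled coil differs between subfamilies and chooses the target: a SPRY domain in most members, and PHD and bromodomains, NHL repeats, a MATH domain, an ARF domain or a membrane anchor in others. Many members act in cell-intrinsic antiviral defence, and others act on chromatin, microtubules, muscle or messenger RNA. The genes described here are the numbered members of this family, that is, rows of the count table whose Ensembl identifier carries a protein-coding symbol made of TRIM and a number in GENCODE 29, with TRIM28 left out. The rule found 64 of 20169 genes and used no expression value.

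The libraries came from HEK293T cells, a much used line of human embryonic kidney origin, which carried a landing pad, a genomic docking site for inserted reporter genes. One group of 3 libraries held the PGK landing pad and the other 3 the CAG landing pad, named after the promoter in the pad. Both groups share the HEK293T background, were grown in DMEM with serum and antibiotics without further treatment, and were profiled by directional polyA RNA-seq. The lines are monoclonal, and no label tells apart more than 1 clone with the same promoter, so promoter and clone cannot be told apart. No label says if the replicates are separate cultures, and p-values then measure only the spread between these libraries, which may be technical. Total counts were 21896246 to 22889708 in the PGK libraries and 22450538 to 23442542 in the CAG libraries. Of 8 listed genes known from HEK293-type cells, LHX1 and NEFL had no row under that symbol, and none of the other 6 was at 0. The 6 summed to 534.9 to 543.2 CPM (read counts scaled to a common library size) in PGK and 722.8 to 755.9 CPM in CAG. VIM held most of these sums, at means of 455.4 and 631.1 CPM, and PAX2 stood at 1.55 and 1.27 CPM. Among the 6 genes, the neurofilament gene NEFM had 1249 counts in PGK and 6 in CAG, and INA rose by 2.13 (SE 0.07) on the log2 scale. Erythroid markers summed to 0 to 0.186 CPM with HBB, HBG1 and ALAS2 at 0 counts, and testis germ cell markers to 0.0876 to 0.212 CPM with DAZL, TNP1 and PRM1 at 0 counts. Immune markers summed to 2.25 to 3.60 CPM with CD3E at 0 counts, neuronal markers to 17.3 to 23.4 CPM, fibroblast markers to 19.4 to 24.8 CPM with COL1A2 at 0 counts, and striated muscle markers to 5.68 to 9.22 CPM with MYOG at 0 counts.

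Of the 64 genes, 43 had enough counts to be tested and 21 did not. No count in any library was found for 12 of them: TRIM15, TRIM31, TRIM34, TRIM40, TRIM42, TRIM43, TRIM48, TRIM49, TRIM51, TRIM60, TRIM61 and TRIM63. In a library taken alone, 0 counts still allows a level of up to 3 counts, or 0.126 to 0.140 CPM, by counting error. With all libraries at 0 together the bound is lower. The other 9 held between 1 and 13 counts over all libraries and never more than 4 in a library: TRIM10, TRIM22, TRIM29, TRIM50, TRIM54, TRIM55, TRIM67, TRIM72 and TRIM77. The muscle RING finger genes TRIM54, TRIM55 and TRIM63 and the membrane repair gene TRIM72 are known from striated muscle, and TRIM10 from red cell precursors. TRIM43, TRIM48, TRIM49 and TRIM51 have near-identical copies in the genome, and with no record of how multi-mapping reads were treated, their counts of 0 are uncertain. So is that of TRIM34, which shares 2233 of its 2690 exon bases with the read-through gene TRIM6-TRIM34 on the same strand. TRIM6 and TRIM39 likewise share exon bases with read-through genes.

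Calls among the members were about as frequent as among all genes, and went in both directions. A gene was called where edgeR's quasi-likelihood test gave a Benjamini-Hochberg adjusted p under 0.05 over the 13103 tested genes. By that rule 27 of the 43 tested members (62.8%) were called, against 62.0% of all tested genes. In the CAG line 12 members were higher (27.9%, against 31.6% of all tested genes) and 15 lower (34.9%, against 30.4%). The median log2 fold change, CAG over PGK, was -0.07 for the members and -0.0021 for all tested genes. The libraries of the lines did not overlap for 29 members (67.4%, against 65.5% of all tested genes). Of the tested members 5 (11.6%) were called and differed by at least 2-fold, against 8.62% of all tested genes. Of the 27 called members 16 differed by less than 1.5-fold, a count that was not made for all tested genes. When the test asked for a change beyond 1.5-fold, 8 of the 43 members were called. TRIM56, TRIM17, TRIM5, TRIM21 and TRIM38 were higher and TRIM58, TRIM7 and TRIM41 lower. Of the 13103 tested genes, that test called 954 higher and 558 lower.

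**Figure D1:**
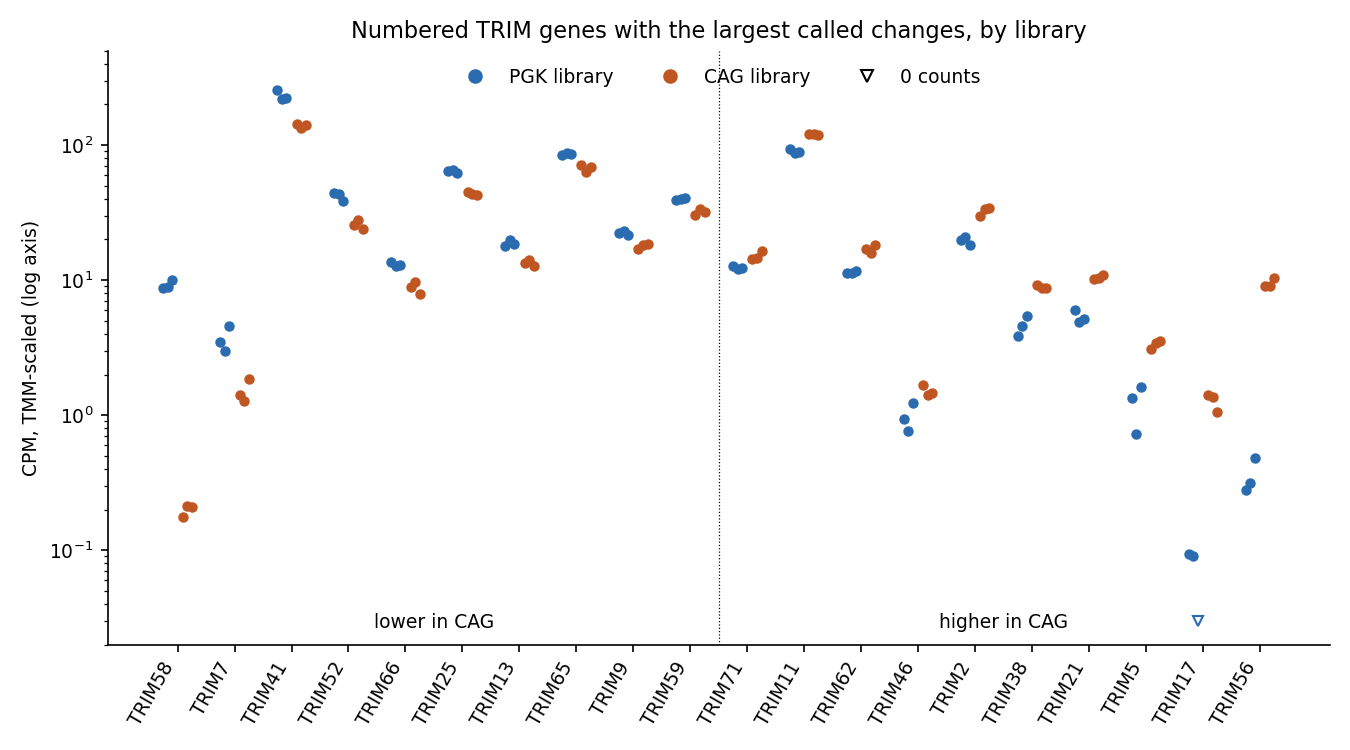
CPM (TMM-scaled, log axis) of the 10 called members that changed most in each direction; each dot is 1 library (blue PGK, orange CAG), and the open triangle marks a library with 0 counts. For all 20 genes the 3 libraries of either line lie wholly above the 3 of the other. This largely follows from choosing called genes with large changes, and the lines did not overlap for 65.5% of all tested genes. The gap is widest for TRIM58, TRIM56 and TRIM17.

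TRIM56 and TRIM17 were close to absent in the PGK line and expressed in the CAG line. TRIM56 (ENSG00000169871, chromosome 7) encodes a ubiquitin ligase that restricts several RNA viruses and acts on the DNA-sensing adaptor STING. It stood at 0.279, 0.315 and 0.482 CPM in the PGK libraries, from 24 counts in all, and at 9.09, 8.98 and 10.4 CPM in the CAG libraries. The lines did not come near each other, and the fold change was 25.9 (log2 4.70, SE 0.19, adjusted p 3.2e-13 in edgeR's quasi-likelihood test). In bulk RNA, fewer expressing cells and less RNA per cell cannot be told apart. TRIM17 (ENSG00000162931, chromosome 1), a ligase described in neurons and testis, had 2, 2 and 0 counts in the PGK libraries and 32, 32 and 25 in the CAG libraries, or 1.42, 1.36 and 1.05 CPM. The CAG to PGK ratio of the summed counts, scaled for depth, was 21.2 with a 95% exact counting interval of 7.98 to 79.3. By edgeR's quasi-likelihood test the adjusted p came to 2.7e-07. All 3 CAG libraries lay above all PGK libraries, at levels that were low in either line.

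TRIM58 showed the reverse pattern. This SPRY-domain ligase is known from maturing red cells, where it targets the motor protein dynein, and the erythroid markers given above were at or near 0 in both lines. TRIM58 (ENSG00000162722, chromosome 1) stood at 8.71, 8.90 and 9.99 CPM in the PGK libraries and at 0.177, 0.212 and 0.210 CPM in the CAG libraries, from 14 counts in all. PGK was 44.8-fold higher (log2 fold change -5.49, SE 0.20, adjusted p 8.4e-14 in edgeR's quasi-likelihood test). The olfactory receptor gene OR2W3, the next tested gene along the chromosome and chosen after its value was seen, had 66 counts in the PGK libraries together and 1 in the CAG libraries, a ratio of 69.4 with a 95% exact counting interval of 12.0 to 2783.

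Smaller rises were found for a trio of antiviral members with a SPRY domain. TRIM5, which binds incoming retroviral capsids, had 1.35, 0.719 and 1.62 CPM in the PGK libraries and 3.10, 3.43 and 3.52 CPM in the CAG libraries. It rose by 1.44 (SE 0.21) on the log2 scale, with an adjusted p of 1.1e-05 in edgeR's quasi-likelihood test. TRIM21, a cytosolic antibody receptor, had 6.01, 4.90 and 5.17 CPM against 10.2, 10.4 and 10.9 CPM. That is a rise of 0.97 (SE 0.10). TRIM38, a regulator of innate immune signalling, had 3.87, 4.58 and 5.43 CPM against 9.18, 8.81 and 8.81 CPM, a rise of 0.94 (SE 0.12). PGK replicate 2 was the lowest library for TRIM5 and TRIM21, and even the highest PGK library of each of the 3 genes lay below every CAG library.

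The wider group of antiviral and innate immune members did not move one way. Of the 12 listed genes 10 were tested: TRIM5, TRIM21, TRIM38 and TRIM56 rose, TRIM25, TRIM26 and TRIM65 fell, and TRIM6, TRIM14 and TRIM23 did not pass. Among all tested genes 31.6% were higher and 30.4% lower, and the list's median log2 fold change was 0.11, against -0.0021 for all of them. TRIM25, the ligase tied to the RNA sensor RIG-I and to the zinc finger antiviral protein, had 64.8, 65.5 and 62.0 CPM in PGK and 45.2, 43.8 and 43.1 CPM in CAG. It fell by 0.54 (SE 0.05) on the log2 scale. Per kilobase of exon TRIM25 stood at 4.63 CPM in CAG, above the 0.848 CPM of TRIM56 there. TRIM65, a ligase of the RNA sensor MDA5, fell by 0.34 (SE 0.05) and TRIM26 by 0.18 (SE 0.06). TRIM22 and TRIM34, which lie beside TRIM5 and TRIM6 on chromosome 11, had 5 counts and an uncertain 0 counts in all.

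Interferon regulatory factors bind a well-known core of letters in the promoters of many antiviral genes, and RefSeq's promoter windows (GRCh38.p14, 250 bases before to 50 after a start) were searched for it. The core was spelled GAAANNGAAA, or in a second form AANNGAAACT, on both strands. Of all windows 3.57% held the first form and 1.57% the second. The search was set up after the expression values were known, and the forms can overlap. Windows were found for 51 of the 64 members, some with several starts. One form or the other was present in 11 of 70 windows of members (15.7%), against 1685 of all 35116 windows (4.80%). The following windows are shown because they belong to the antiviral members that rose (TRIM5, TRIM21, TRIM38, TRIM56), to one that fell (TRIM26) and to one at 0 counts (TRIM34). Capitals mark the matched letters, and each is read along the strand of its gene. They lie at chr11:5685082-5685111 (TRIM5, minus strand), chr11:4393663-4393692 (TRIM21, minus), chr6:25962762-25962791 (TRIM38, plus), chr7:101085465-101085494 (TRIM56, plus), chr6:30213578-30213607 (TRIM26, minus) and chr11:5624901-5624930 (TRIM34, plus).
TRIM5: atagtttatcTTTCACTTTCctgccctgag
TRIM21: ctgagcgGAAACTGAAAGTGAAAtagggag
TRIM38: ctcccacagtAGTTTCACTTctcagtttaa
TRIM56: aagtacaattAGTTTCAGTTttgtttcttt
TRIM26: cgcctgaTTTCAGTTTCCATTTCgctgccc
TRIM34: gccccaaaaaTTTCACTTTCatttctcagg
All 4 of the antiviral members that rose held a match, as did TRIM26, which fell, and TRIM34, whose count of 0 is uncertain. TRIM38 and TRIM56 matched the second form only. The windows of the antiviral members TRIM25 and TRIM65, which fell, and TRIM6 and TRIM23, which did not pass, held no match. No window was found for the listed antiviral member TRIM22. TRIM14, also on the antiviral list, held a match, as did TRIM44, TRIM69, TRIM16 and TRIM2. Among these TRIM44 rose by 0.16 (SE 0.05) and TRIM2 by 0.73 (SE 0.07), while TRIM14, TRIM16 and TRIM69 did not pass. Since the forms were set after the expression values were known, the matches are no test of the rises. A match is a description of letters and does not show that a factor binds there.

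The sensing genes around TRIM25 and TRIM56 were likewise split. Among 14 such genes with a row, 11 were tested, with 4 higher and 3 lower and a median log2 fold change of -0.15. That is 63.6% called, near the 62.0% of all tested genes. DDX58, which encodes RIG-I, rose by 1.12 (SE 0.20) from 1.27 ± 0.297 CPM in the PGK libraries to 2.78 ± 0.237 CPM in the CAG libraries (SD, n = 3). TMEM173, which encodes STING, rose by 0.87 (SE 0.22), from 1.13 to 2.06 CPM. The adaptor MAVS fell by 0.34 (SE 0.06) from a higher level of 79.8 CPM. IFIH1, which encodes MDA5, had 2 counts in PGK and 17 in CAG, too few to test.

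A group of 3 members at the end of chromosome 5 was lower in the CAG line, as were the tested genes next to them. TRIM41, a ligase reported to act on protein kinase C, was the member with the highest CPM in the PGK line. It had 255, 221 and 224 CPM in the PGK libraries and 142.9, 134.8 and 141.1 CPM in the CAG libraries, and fell by 0.74 (SE 0.05) on the log2 scale. TRIM7, a partner of glycogenin, had 3.49, 3.01 and 4.599 CPM against 1.42, 1.27 and 1.85 CPM and fell by 1.29 (SE 0.20). TRIM52, a member with an enlarged RING domain, had 44.2, 43.2 and 38.6 CPM against 25.6, 27.7 and 24.1 CPM and fell by 0.70 (SE 0.07). Adjusted p ran from 1.5e-09 for TRIM41 to 1.6e-05 for TRIM7 in edgeR's quasi-likelihood test. Between TRIM41 and TRIM52 lies RACK1, a ribosome-bound scaffold, which fell by 0.73 (SE 0.05) from 2986 to 1806 CPM, and next to TRIM7 lies BTNL9, which fell by 0.70 (SE 0.08). The median log2 fold change of the 50 nearest tested genes was -0.29, and that of the 20 nearest -0.17. In a shorter stretch chosen after its values were seen, the last 10 tested genes of the chromosome, 7 are no members, of which 6 were lower (30.4% of all tested genes were) with a median of -0.52. TRIM52 shares 1868 exon bases with a transcript on the other strand, and TRIM7 and TRIM41 also overlap antisense transcripts. Without a stated strand setting for the counting, these values are uncertain.

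Summed over the 64 genes, TRIM reads made up 1583 ± 17.7 CPM (SD, n = 3) in PGK and 1447 ± 4.80 CPM in CAG. TRIM41 held 14.7% of that sum in PGK and 9.64% in CAG. Without TRIM41 the sums were 1350 ± 2.57 and 1308 ± 6.18 CPM, with no overlap between the lines on this scale. That small gap rests on the TMM scaling, whose factors were 0.981 to 0.997 in PGK and 1.005 to 1.017 in CAG. Divided by plain library totals, the sums without TRIM41 overlap between the lines.

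**Figure D2:**
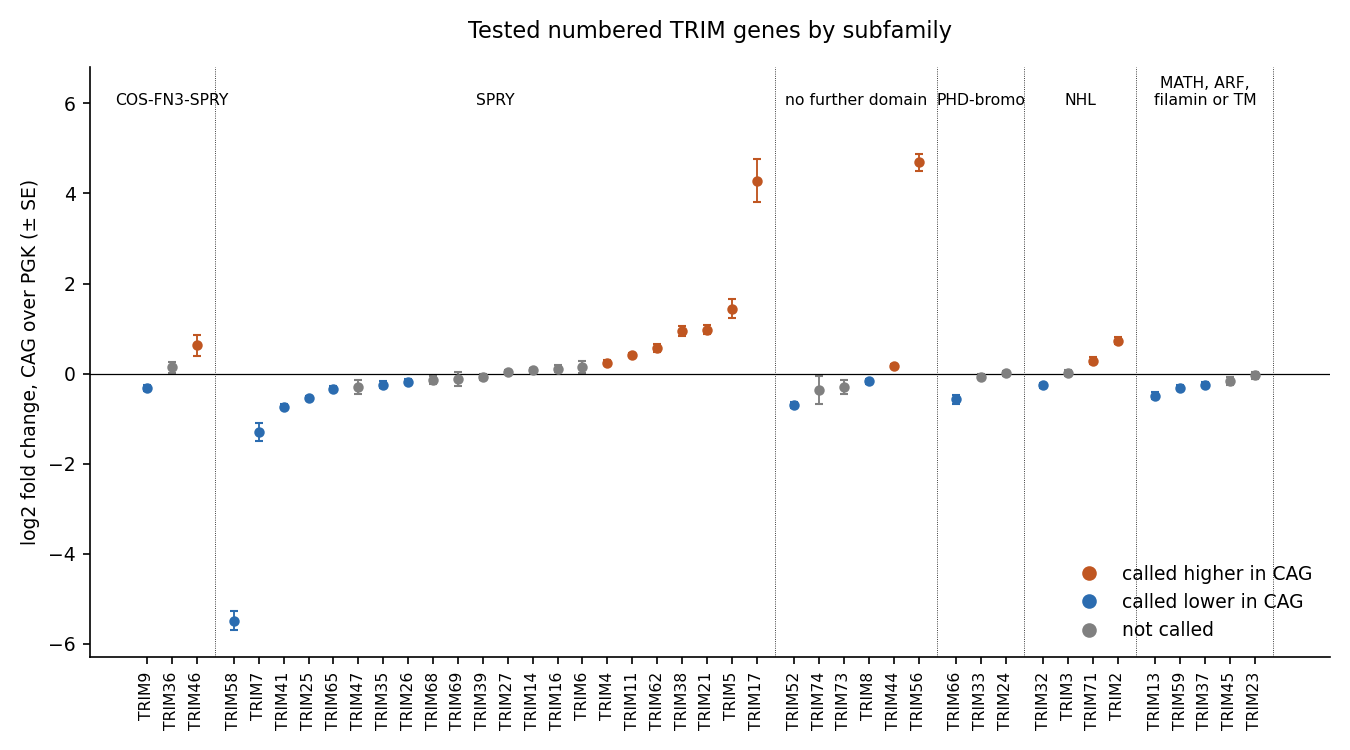
Log2 fold change, CAG over PGK, of the 43 tested members, with bars for the standard error, grouped by the domain that follows the coiled coil (TM, transmembrane). The SPRY and NHL groups and the group with no further domain hold genes on both sides of 0, the 5 genes of the last group all lie below 0, and TRIM56, TRIM17 and TRIM58 lie far outside the rest.

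By subfamily, calls went both ways in most groups. Of 22 tested members with a SPRY domain but no microtubule-binding COS box, 7 were higher and 7 lower, with a median of -0.01. Their shares of 31.8% each were close to the 31.6% and 30.4% of all tested genes. The members without a further domain had 2 higher and 2 lower of 6. Beside TRIM56, the higher one was TRIM44, which lacks a RING finger, at 0.16 (SE 0.05). Leaving out CAG replicate 2 ended its call (adjusted p 0.0557, with all alternatives between 0.00148 and 1). The lower ones were TRIM52 and TRIM8 at -0.17 (SE 0.06). The TRIM8 call was lost with scaling by library size only and without CAG replicate 3, at adjusted p of 0.0507 and 0.102 (all alternatives between 0.00531 and 1).

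Other SPRY members rose by less. TRIM62, a ligase linked to epithelial polarity, had 11.3, 11.3 and 11.8 CPM in PGK and 17.0, 15.8 and 18.2 CPM in CAG, a rise of 0.57 (SE 0.08). TRIM11, a ligase of misfolded proteins, rose by 0.41 (SE 0.05) from 90.3 ± 3.21 to 119.7 ± 0.557 CPM (SD, n = 3). TRIM4 rose by 0.24 (SE 0.06). TRIM35 fell by 0.25 (SE 0.07). TRIM8, TRIM11, TRIM25, TRIM37 and TRIM62 also share exon bases with genes on the other strand. TRIM4, TRIM11 and TRIM25 share some with genes on their own strand. All of these are uncertain for that reason. Of the SPRY members that did not pass, TRIM27, a repressor first found fused to the RET kinase, stood at 151.2 ± 3.59 and 155.8 ± 3.53 CPM.

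Among the NHL-repeat members, which include regulators of messenger RNA, TRIM2 and TRIM71 were higher, TRIM32 was lower and TRIM3 did not pass. TRIM2, a ligase of the neurofilament light chain, had 19.9, 20.8 and 18.1 CPM in PGK and 29.8, 33.6 and 34.3 CPM in CAG, with a rise of 0.73 (SE 0.07) and an adjusted p of 9.5e-08 in edgeR's quasi-likelihood test. TRIM71, the human counterpart of the nematode gene lin-41 and a well-known target of the let-7 microRNA, had 12.8, 12.2 and 12.4 CPM against 14.4, 14.7 and 16.5 CPM. It rose by 0.29 (SE 0.08), and all CAG libraries lay above all PGK libraries. TRIM32, mutated in a limb-girdle muscular dystrophy, fell by 0.26 (SE 0.06) from 35.9 ± 0.907 to 29.9 ± 0.468 CPM. TRIM3 stood at 16.2 ± 0.121 and 16.4 ± 0.0881 CPM (SD, n = 3).

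The chromatin members TRIM24 and TRIM33 did not pass, at log2 fold changes of 0.0076 (SE 0.06) and -0.07 (SE 0.05). Without PGK replicate 1 TRIM33 was lower, at an adjusted p of 0.0487 (all alternatives between 0.0487 and 1). TRIM66, a related gene with PHD and bromodomains that is known from testis, had 13.7, 12.6 and 13.0 CPM in PGK and 8.91, 9.70 and 7.84 CPM in CAG and fell by 0.57 (SE 0.09). It shares 94 exon bases with RPL27A on the other strand.

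Among members of the microtubule-binding class, TRIM9, a brain ligase of axon guidance, had 22.4, 23.1 and 21.6 CPM against 17.0, 18.1 and 18.4 CPM and fell by 0.32 (SE 0.07). TRIM46, which organises microtubules at the axon initial segment, had 0.931, 0.764 and 1.23 CPM against 1.69, 1.40 and 1.47 CPM. Its rise of 0.63 (SE 0.23) had an adjusted p of 0.0250 in edgeR's quasi-likelihood test. DESeq2 did not call it, nor did edgeR once PGK replicate 1, PGK replicate 2 or CAG replicate 1 was left out, at adjusted p of 0.0888, 0.0574, 0.104 and 0.0919 (all alternatives between 0.0131 and 0.985). TRIM36 did not pass, and TRIM67 had 12 counts in all.

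The remaining members have a MATH or ARF domain, filamin repeats or a membrane anchor, and 3 of the 5 were lower and 0 higher. Among all tested genes 62.0% were called and 30.4% lower, and with 5 members the share called was close to that. TRIM13, which sits in the membrane of the endoplasmic reticulum, had 18.0, 19.95 and 18.6 CPM against 13.3, 14.2 and 12.7 CPM and fell by 0.49 (SE 0.08). TRIM59 fell by 0.31 (SE 0.06), and TRIM37, which guards against surplus centrioles, fell by 0.25 (SE 0.05) from 77.4 ± 4.38 to 65.1 ± 0.838 CPM (SD, n = 3). TRIM23 and TRIM45 did not pass. TRIM13 overlaps DLEU2 on the other strand and KCNRG on its own. TRIM59 shares 1561 exon bases with SMC4 on the other strand and 1138 with another gene on its own. The values of TRIM13 and TRIM59 are therefore uncertain.

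The 16 tested members that did not pass had log2 fold changes from -0.37 to 0.15. Beside those named they were TRIM16, TRIM39, TRIM47, TRIM68, TRIM69, TRIM73 and TRIM74. The lowest, TRIM74, and its near-identical copy TRIM73 stood at 0.941 and 3.54 CPM in PGK, and how reads divide between them is uncertain. TRIM16 shares 1327 exon bases with another gene on its strand. On the other strand TRIM47 and TRIM14 share 1618 and 422 with other genes, so these values are uncertain too. TRIM68 and TRIM73 were called lower when a library was left out, TRIM68 without PGK replicate 3 (adjusted p 0.0360, range 0.0360 to 1) and TRIM73 without PGK replicate 2 (adjusted p 0.0281, range 0.0281 to 1).

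Per kilobase of annotated exon, the scale on which genes can be compared, the levels of TRIM mRNAs spanned from under 1 to over 20 CPM. By the length of all annotated exons together, TRIM26 was highest, at 22.9 ± 1.36 CPM per kilobase in PGK and 20.2 ± 1.03 in CAG (SD, n = 3). TRIM65 followed in PGK at 21.7 ± 0.313, within the spread of TRIM26, and TRIM27 was at 18.9 ± 0.449. TRIM41 was at 18.2 ± 1.47 in PGK but 10.9 ± 0.331 in CAG, where it lay below TRIM37 at 11.9 ± 0.153, TRIM24 at 11.7 ± 0.505 and TRIM11 at 14.1 ± 0.0656. The place of TRIM41 depends on the length used: by the longest transcript it was highest in PGK, at 33.3 against 28.9 CPM per kilobase for TRIM26, and in CAG it stood at 19.9, above TRIM37 at 15.0 and TRIM24 at 12.8. In the other groups TRIM32 was highest among NHL members (9.48 ± 0.240 in PGK) and TRIM9 among the microtubule-binding ones (1.99 ± 0.0847 in CAG). Among those without a further domain TRIM52 was highest in PGK (6.40 ± 0.451), with TRIM44 above it in CAG (5.13 against 3.93). By the longest transcript TRIM52 lay above TRIM44 in CAG too, at 5.42 against 5.17. By all annotated exons TRIM56 reached 0.848 ± 0.0686 in CAG and TRIM58 2.85 ± 0.214 in PGK, well below TRIM26 and TRIM65 in the same lines.

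**Figure D3:**
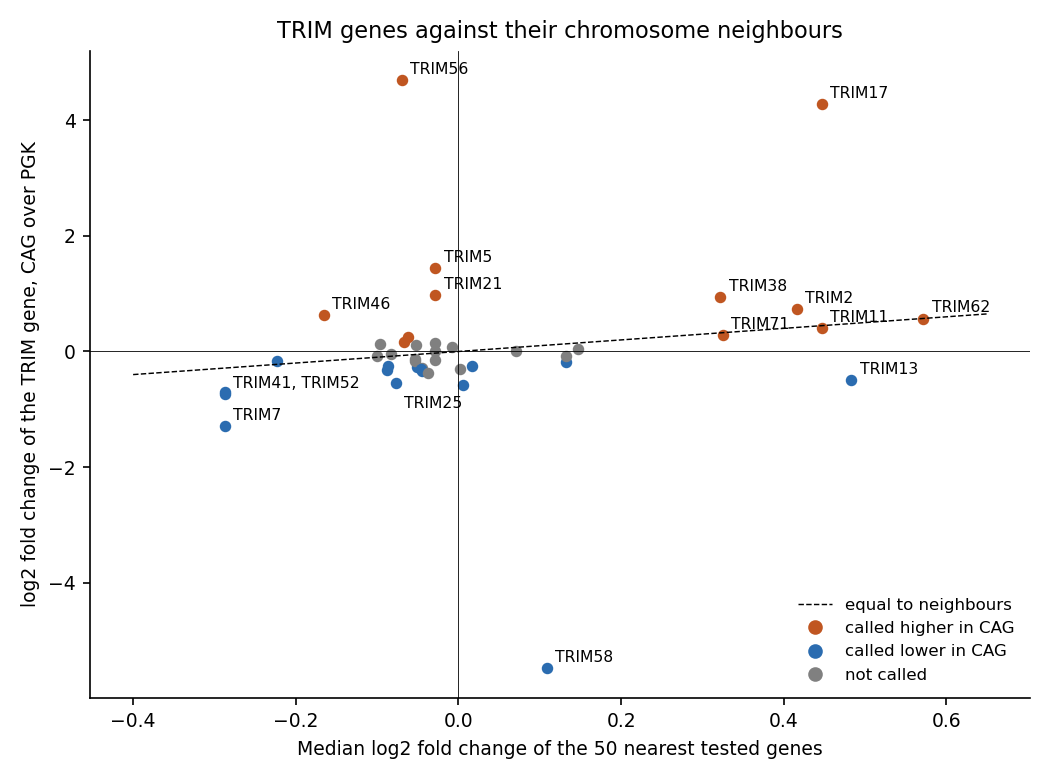
Log2 fold change of each of the 43 tested members (y axis) against the median log2 fold change of the 50 nearest tested genes on its chromosome (x axis); the dashed line marks equal values. TRIM62, TRIM11 and TRIM71 lie on the line, TRIM13 lies below 0 beside neighbours that were higher, and TRIM56, TRIM17 and TRIM58 lie far from it.

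Neighbouring genes can differ together between cell lines, so each member was set beside the 50 nearest tested genes that are not members. Of the 27 called members 16 had the sign of their neighbours' median: 6 of 12 among the higher ones and 10 of 15 among the lower ones. For 33 of the 43 tested members the log2 fold change lay within 0.5 of that median. Neither count was made for all tested genes, whose median absolute log2 fold change was 0.26. Pearson's r between a member's value and its neighbours' median was 0.22 and Spearman's rho 0.30 over 43 genes. Without the 5 members called at 2-fold or more, Pearson's r was 0.47 over 38 genes. Those 5 were left out by the same value that enters r, so no conclusion is drawn from its rise. All of these values are descriptions, since nearby members share neighbours. TRIM62 at 0.57, TRIM11 at 0.41 and TRIM71 at 0.29 matched their neighbours' medians of 0.57, 0.45 and 0.32. TRIM13 at -0.49 went against a median of 0.48 on chromosome 13, where 46 of its 50 neighbours had a positive value. TRIM2 exceeded its neighbours' median of 0.42 by 0.32, and TRIM38 its median of 0.32 by 0.62.

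**Figure D4:**
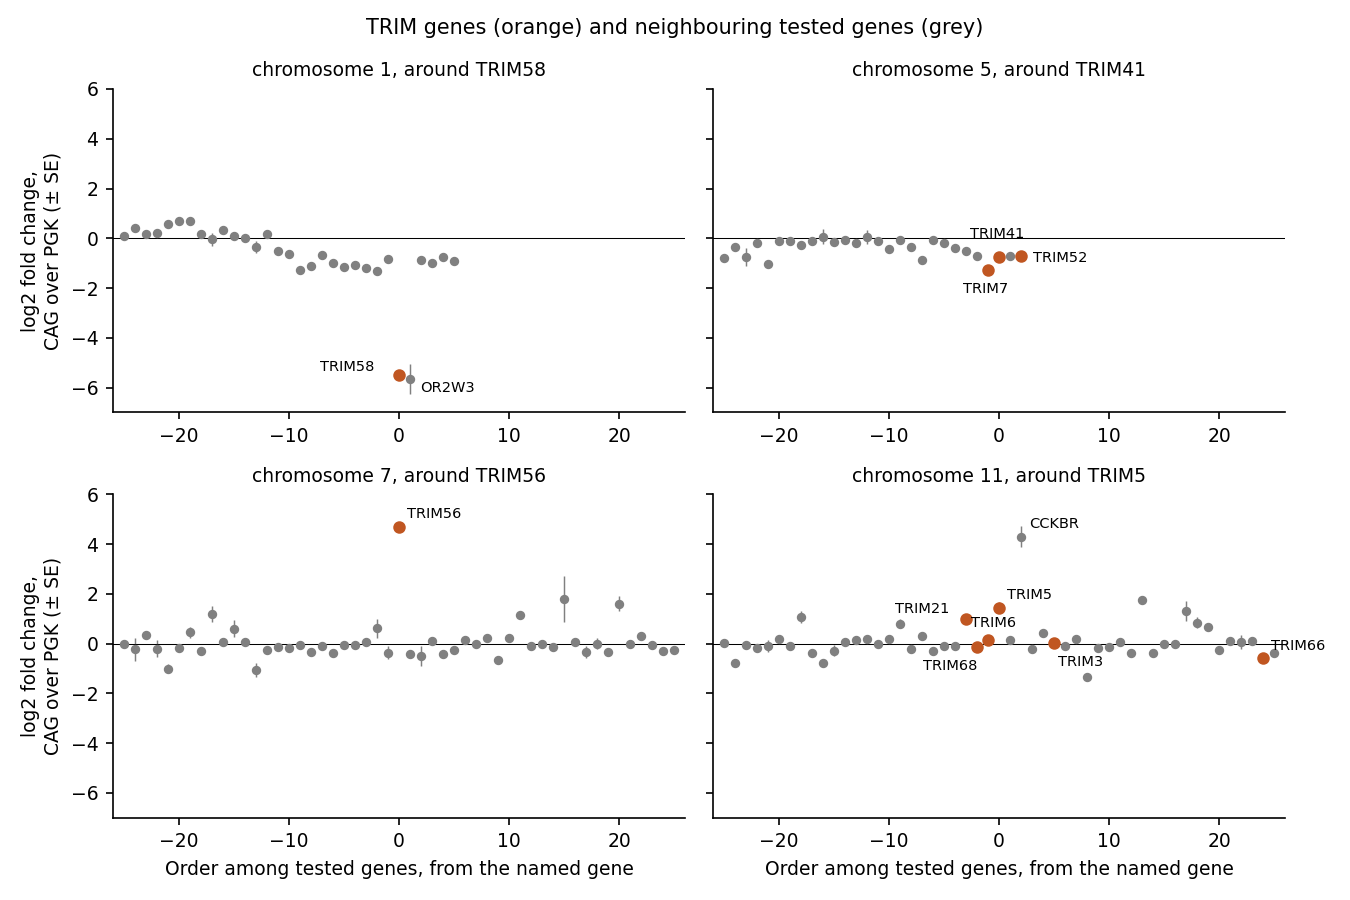
Log2 fold change, CAG over PGK, with standard error, of tested genes in chromosome order around TRIM58, TRIM41, TRIM56 and TRIM5 (x axis: number of tested genes from the named one; TRIM genes in orange). TRIM58 and OR2W3 drop far below a lower stretch at the end of chromosome 1, TRIM7, TRIM41 and TRIM52 close a lower stretch on chromosome 5, and TRIM56 is the highest gene of its window.

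The members with the largest changes lay far from the median of their neighbours, though the tested gene next to TRIM58 fell about as far. TRIM56 exceeded the median of its neighbours, which was -0.07, by 4.77, and the adjacent tested genes MUC3A and AP1S1 had values of -0.36 (SE 0.26, not passing) and -0.42 (SE 0.06). TRIM17 exceeded a median of 0.45 by 3.84, and TRIM11 next to it lay at 0.41. TRIM58 differed by -5.59 from a median of 0.11. Of the 20 nearest genes the median was -0.88. In a stretch chosen after its values were seen, AHCTF1 to the end of chromosome 1, all 11 tested genes other than TRIM58 were lower. Their median was -1.01, and 30.4% of all tested genes were lower. The lower run began earlier, with KIF26B, SMYD3, TFB2M, CNST and SCCPDH at -0.50, -0.63, -1.28, -1.10 and -0.69, all called. OR2W3, next to TRIM58, stood at -5.66 (SE 0.61), close to the value of TRIM58 itself. ZNF496 and SH3BP5L, which flank TRIM58 and OR2W3, stood at -0.84 (SE 0.07) and -0.87 (SE 0.06).

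On chromosome 11 the cluster of TRIM genes split. TRIM5 and TRIM21 lay at 1.44 and 0.97 and TRIM68, TRIM6 and TRIM3 at -0.14, 0.15 and 0.01, the latter 3 not passing, with a median of -0.03 for their shared neighbours. CCKBR, the gastrin receptor gene and the tested gene next but 1 to TRIM5, had 5 counts in PGK and 111 in CAG, a ratio of 21.1 with a 95% exact counting interval of 8.78 to 66.3. Near TRIM38 on chromosome 6 the iron regulator HFE had 2 counts in PGK and 74 in CAG, a ratio of 35.2 (interval 9.40 to 295.9). CCKBR and HFE were chosen after their values were seen. TRIM5 shares 382 exon bases with another gene on its strand, and TRIM38 and TRIM17 overlap antisense transcripts by 273 and 87 bases, so these values are uncertain.

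Related genes that have no TRIM number moved in both directions. Of 8 listed, 5 were tested and all were called, 3 higher and 2 lower, against 62.0% of all tested genes. MID1, the microtubule-bound ligase behind Opitz syndrome, fell by 0.56 (SE 0.05) from 206.6 to 140.5 CPM, while its paralog MID2 rose by 0.95 (SE 0.10) from 9.44 to 18.3 CPM. PML, the scaffold of nuclear bodies, rose by 0.20 (SE 0.06). BSPRY rose by 1.52 (SE 0.31) and RNF207 fell by 1.00 (SE 0.11), the latter beside neighbours with a median of -0.58.

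The enzymes that hand ubiquitin to these ligases also moved in both directions. All 23 listed ubiquitin genes and E1 and E2 enzymes were tested, and 11 were higher (47.8%, against 31.6% of all tested genes) and 7 lower (30.4%, as among all tested genes), with a median log2 fold change of 0.07. UBE2D3, of the E2 class that many RING ligases use, rose by 0.98 (SE 0.05) from 193.2 to 380.2 CPM, beside neighbours with a median of 0.53. UBE2V1, a partner of UBE2N in building ubiquitin chains, fell by 1.13 (SE 0.16) from 4.08 to 1.85 CPM, and is uncertain because a read-through gene shares its exons. UBE2N itself did not pass, at -0.03 (SE 0.05). UBE2D1 and UBE2D2 fell by 0.29 (SE 0.07) and 0.16 (SE 0.05).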

How the data were processed

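RNA-seq of polyA RNA was available for 6 libraries, 3 per line. The authors deposited whole-number read counts per Ensembl gene, neither normalized nor pooled. The submitters' processing notes name hg19 and the tools featureCounts 2.0.3, HISAT2 2.2.1, cutadapt 4.6 and Bowtie2 2.5.1. Annotation release, strand setting and multi-mapping: not given in the sources used here. Symbols for 19346 of 20169 rows, gene order, exon lengths and overlaps came from GENCODE 29 (GRCh38), so no gene coordinates are given; promoter windows came from RefSeq. Protein sequences were not used here.

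Counts were filtered with filterByExpr, scaled by TMM and tested with edgeR 4.0.16 (R 4.3.3; quasi-likelihood, robust, two-sided, Benjamini-Hochberg over 13103 genes). SE was taken as |log2 fold change| divided by the square root of F. CPM uses TMM-scaled totals. With 1 to 6 counts in a line, ratios have 95% exact binomial intervals; PCR reads are not independent molecules, so intervals and floors cover counting error only. The pipeline was tested on simulated counts. Within a line, libraries differed beyond sampling noise (chi-square per degree of freedom at least 3.31).

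Members and lists were chosen with earlier results of these data known. The rule for named genes took, per direction, at most 10 called members by log2 fold change (mean of 0.5 CPM or more in either line). It also took the member highest per kilobase in each subfamily, up to 2 genes per other list, MID1, MID2 and PML. The other called members, MAVS, IFIH1, UBE2N, UBE2D1, UBE2D2, NEFM, INA, VIM, PAX2 and the genes beside members fall outside it. They were named after their values were seen. No column was left over. Alternatives were other filters, RLE or no scaling, DESeq2 1.42.0, limma-voom (limma 3.58.1), a fold of 1.5, a replicate block, leaving out each library, 20 or 100 neighbours, and longest transcript length.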

Additional observations from a re-analysis of the deposited data

How the results depend on the processing

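Of the 27 called members, 8 kept direction and call under every alternative that tested them, and 16 of the other 19 changed only when tested against a fold of 1.5. That test called 5 members higher and 3 lower, and 954 and 558 of all tested genes, against 4139 and 3986 in the test of no change. No called member changed direction under any alternative. Apart from the fold of 1.5, the number of members called ranged from 11 to 12 higher and from 14 to 16 lower. Same-numbered libraries deviated together with correlations of 0.108, 0.103 and 0.0131, and each library correlated best with its own number. The labels state no pairing, so the main test did not use the numbers. With the replicate block 12 members were higher and 15 lower, the same 27. Over all tested genes the block raised the calls to 4461 higher and 4400 lower. By longest transcript in place of all exons, TRIM41 and not TRIM26 had the highest level per kilobase in PGK. In CAG TRIM52 and not TRIM44 was then highest among members without a further domain. Scaling by library size moved the median of all tested genes from -0.0021 to 0.03. With 20 or 100 neighbours in place of 50, 17 of 86 differences between a member and its neighbours moved by more than 1 SD of the libraries. Of 308 counts over subfamilies and lists, 25 moved by more than 1.5 times, among them the sensing genes called lower, 5 with the replicate block against 3. Depth limits the 21 untested members. At these totals 0 counts in a library taken alone allows a level of up to 0.140 CPM, and 0 in all libraries together allows less.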

Other observations

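Some rows of the table belong to copies or read-through transcripts of members and fall outside the naming rule. TRIM16L, a shortened copy of TRIM16 on chromosome 17, fell by 0.28 (SE 0.09) from 12.4 to 10.2 CPM, while TRIM16 did not pass, at 0.11 (SE 0.08). The pair is alike in sequence, so the split of reads between them is uncertain. The read-through rows TRIM39-RPP21 and TRIM6-TRIM34 held 7 and 1 counts in PGK and 3 and 0 in CAG.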
